A study of Zea mays with 19 samples.

Results

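miR167 is a plant microRNA family that is deeply conserved and pairs with transcripts of auxin response factors, the transcription factors that switch auxin-responsive genes on or off. In Arabidopsis its targets are ARF6 and ARF8, and miR160, miR390 and miR393 act on other auxin response factors or on auxin receptors. Auxin acts in the embryo axis together with gibberellin and abscisic acid when a seed takes up water and germinates. The members described here are all sequences of the authors' deposited miRNA table that are named miR167 or MIR167, from either arm of the precursor hairpin and under any species prefix. There were 13 such sequences, on 23 table entries, out of 536 sequences on 782 entries.

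The libraries came from embryos of 2 maize inbred lines, both derived from the population Yuzong5, and each sample pooled the embryos of 5 seeds. Yu82, which germinates early, was sampled at 6 h and 53 h after imbibition, and Yu537A, which germinates late, at 6 h, 53 h and 78 h, with a further Yu537A group at 53 h treated with gibberellin (GA3). Each of the 6 groups held 3 biological replicates. The labels give 400 mg/L as the GA3 pretreatment of Yu537A seeds without naming the groups, and the design text names 1 group as treated, so Yu537A outside that group was treated here as having had none. All seeds were mature at harvest and germinated at constant temperature in a light and dark cycle. With 1 line of each germination type, line and germination type cannot be told apart. The labels put the 1 degradome library, in which the 5′ ends left by transcript cleavage are sequenced, in none of these groups. Library totals ran from 42958 to 818798 counts, and the libraries listed between 110 and 378 sequences. Of the markers of another tissue, the reproductive families miR2275 and miR2118, miR2275 was at 0 in all 18 libraries. miR2118 was listed at 206, 138 and 94 counts in Yu82 at 53 h, in libraries of 42958 to 170517 counts. In Yu537A at 53 h it was listed at 78, 76 and 14 counts, in libraries of 99068 to 818798 counts. Its share at 53 h was thus larger in Yu82, and this was not tested. miR482, counted as well, had at most 65 counts.

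The mature sequences of the family are shown because they separate it into groups by seed, the bases 2 to 8 from the 5′ end, which are in capitals. They are given as deposited, in DNA letters. The 5p arm held 8 sequences, and 6 of them share 1 seed.

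zma-miR167a-5p: tGAAGCTGccagcatgatcta
zma-miR167e-5p_R+1: tGAAGCTGccagcatgatctgg
zma-miR167e-5p: tGAAGCTGccagcatgatctg
mtr-miR167b-5p_1ss21GT: tGAAGCTGccagcatgatctt
mdm-miR167h_R-1_1ss19CT: tGAAGCTGccagcatgatttt
ptc-miR167a_R+1: tGAAGCTGccagcatgatctat

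The remaining 5p sequences carry 1 added base at the 5′ end, which shifts their seed by 1 position.

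osa-miR167d-5p_L+1R+1_1: aTGAAGCTgccagcatgatctgg
osa-miR167d-5p_L+1R+1_2: cTGAAGCTgccagcatgatctgg

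All 8 hold the first 18 bases of zma-miR167a-5p, and they differ in what follows and in length, from 21 to 23 nt. The 5 sequences of the 3p arm, the strand opposite, have 5 different seeds.

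zma-miR167h-3p_L+1R+1: aGATCATGttgcagcttcact
zma-miR167e-3p: gATCATGCtgtgcagtttcatc
zma-miR167g-3p_L+1: aGGTCATGctgtagtttcatc
zma-miR167b-3p_L-1: aTCATGCTgtgacagtttcact
zma-MIR167j-p3_2ss12AT20TA: tCTGAAGAaagtgttggctatc

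The last of these was listed by the authors as a new 3p product and was not found, as written, in the hairpin it was assigned to. In all, 8 sequences had maize names and 5 were named after another species (mtr, mdm, ptc and osa). In these names, as deposited, L and R mark bases added to or missing from the left or right end, and ss marks a substitution against the named miRNA.

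The maize 5p sequences came from 10 precursor genes on 6 chromosomes. zma-miR167a-5p was assigned to MIR167a, b, c and d, zma-miR167e-5p_R+1 to MIR167g, h and i, and zma-miR167e-5p to MIR167e, f and j. MIR167a and MIR167g lie 1773 nt apart on the plus strand of chromosome 3, at chr3:119392621-119392810 and chr3:119394584-119394826, and carry different 5p sequences. The listed precursors span 109 to 243 nt. A pair of hairpins with both arms listed is shown, with the mature products in capitals: MIR167b on the plus strand at chr5:7976369-7976495 and MIR167i on the plus strand at chr9:113476123-113476252. Positions are the authors' own. No label or header names their genome build, so no gene or exon annotation was attached.

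zma-MIR167b: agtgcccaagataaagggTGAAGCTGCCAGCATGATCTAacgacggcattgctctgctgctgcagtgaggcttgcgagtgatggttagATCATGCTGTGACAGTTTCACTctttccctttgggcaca
zma-MIR167i: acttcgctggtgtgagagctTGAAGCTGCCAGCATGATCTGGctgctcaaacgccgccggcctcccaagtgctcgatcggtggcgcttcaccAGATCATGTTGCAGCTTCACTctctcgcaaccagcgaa

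The 3 maize 5p sequences made up 92.8% of the 27914 counts of the family over the 18 libraries. zma-miR167a-5p alone held 55.9%, zma-miR167e-5p_R+1 24.6% and zma-miR167e-5p 12.3%. zma-miR167h-3p_L+1R+1 held 96.1% of the counts of the 3p arm. These 4 sequences were listed in all 18 libraries. mtr-miR167b-5p_1ss21GT was listed in 9 libraries and mdm-miR167h_R-1_1ss19CT in 7. Of the remaining 7 sequences, 6 were listed in 1 library each and zma-MIR167j-p3_2ss12AT20TA in 2, all with 18 counts or fewer, and none of these 7 passed the filter on low counts. A sequence at 0 was not shown to be absent, because the smallest value listed in a library lay between 1.5 and 4.5 counts, and was 4 in 9 of the 18.

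The split between the 3 maize 5p sequences is blurred in the deposited values. Of their 54 values, 3 were whole numbers within 0.01, against 15 of 18 for their sum, so reads that fitted more than 1 of these sequences had been divided between them. The family total was whole in 13 of 18 libraries. Where the remaining parts of the divided reads were listed in the other libraries was not checked. The total is given first and the sequences beside it.

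Summed over its members, miR167 ranked 17th of 61 families by mean level, at 5524 CPM (counts scaled to a common library total, here by TMM, which adjusts those totals so that most sequences keep their level between libraries). It held between 0.277% and 0.877% of the miRNA counts of a library. In Yu82 the family stood at 3073, 2474 and 5747 CPM at 6 h in replicates 1 to 3, and at 1672, 2888 and 2556 CPM at 53 h. In Yu537A it stood at 4703, 12396 and 7790 CPM at 6 h, at 12851, 6793 and 4117 CPM at 53 h, and at 13306, 2546 and 2987 CPM at 78 h. With GA3 it stood at 3865, 4428 and 5232 CPM at 53 h. The highest libraries were 1 each of Yu537A at 6 h, 53 h and 78 h, and the lowest was from Yu82 at 53 h, 7.96-fold below the highest.

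By group mean the order was Yu537A at 6 h (8296 ± 3872 CPM, SD, n = 3), Yu537A at 53 h (7921 ± 4475), Yu537A at 78 h (6280 ± 6089), Yu537A with GA3 (4508 ± 687), Yu82 at 6 h (3765 ± 1742) and Yu82 at 53 h (2372 ± 629). The libraries of each pair of neighbours in this order overlapped, so no neighbours differed beyond their spread. Counts alone do not tell apart fewer cells that carry the miRNA and less of it per cell.

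**Figure D1:**
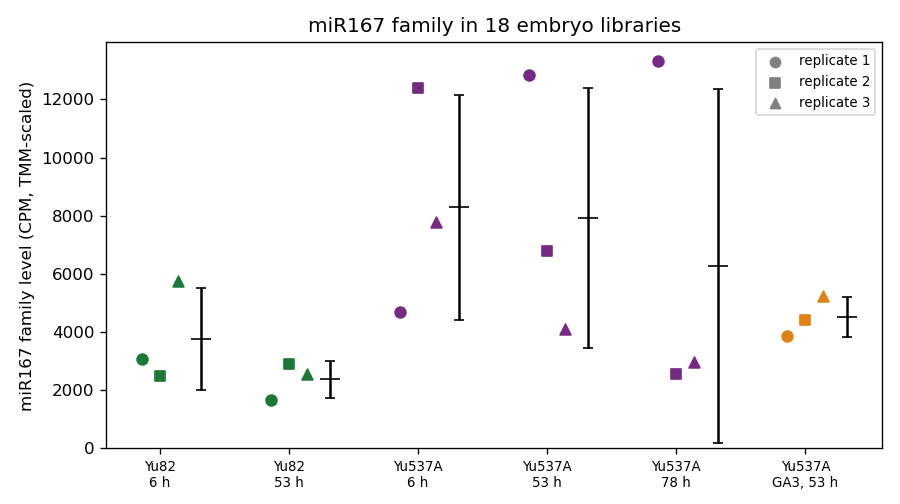
Level of the miR167 family (y axis, CPM scaled by TMM) in the 18 embryo libraries by line and time. Each point is a library with its replicate number, and the black mark with its bar is the mean ± SD of 3 libraries. The libraries of Yu537A at 53 h, from 4117 to 12851 CPM, all lie above those of Yu82 at 53 h, from 1672 to 2888 CPM.

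The lines at 53 h gave the only family total that passed the threshold. miR167 was higher in Yu537A than in Yu82, with a log2 fold change of 1.74 (SE 0.60, edgeR quasi-likelihood test, adjusted p = 0.0467 over 48 families), and the libraries did not overlap. In the same comparison 9 of the 48 families were called higher, which is 18.8%, and 43.8% of the families had libraries that did not overlap, so neither sets miR167 apart from other families. The call is a borderline one. It depends on how sequences with equal values were merged, a choice settled after a first fit with another rule had been seen: the adjusted p was 0.0575 under that first rule and 0.0502 with no merging, at log2 fold changes of 1.72 and 1.77. Left out one at a time, replicate 1 of Yu537A moved the log2 fold change to 1.15 (adjusted p = 0.167), and replicates 1 and 3 of Yu82 and 2 of Yu537A also ended the call. With the replicate number as a block the adjusted p was 0.0713.

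The scaling sets the size of this difference. The TMM factors were 1.25 to 2.13 in Yu82 at 53 h and 0.621 to 1.01 in Yu537A at 53 h. Scaled by library totals alone, the log2 fold change was 0.60 (SE 0.48, adjusted p = 0.283), while the median over all families moved from 0.04 to -1.16. Relative to that median miR167 stood 1.75 log2 units higher on library totals and 1.70 with TMM. Scaling shifts all families by nearly the same amount, so these 2 values are close by construction. They do not show which scaling is right. As a plain share of the miRNA counts, miR167 held 0.600% ± 0.192 (SD, n = 3) in Yu537A and 0.398% ± 0.133 in Yu82 at 53 h, and the libraries overlapped (exact permutation test, two-sided, p = 0.2, adjusted p = 0.6 over 6 comparisons, with 0.1 as the smallest p that 3 against 3 allows).

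At 6 h the family was 1.14 log2 units higher in Yu537A (SE 0.59), and this did not pass the test (edgeR, adjusted p = 0.224). The libraries overlapped, since replicate 1 of Yu537A at 4703 CPM lay below replicate 3 of Yu82 at 5747 CPM. In this comparison 6.25% of families were called. On library totals the log2 fold change was 0.43, and without replicate 2 of Yu537A it was 0.53. The share of miRNA counts was 0.622% ± 0.270 in Yu537A and 0.460% ± 0.140 in Yu82 (SD, n = 3 each, exact permutation p = 0.6, adjusted p = 0.72).

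The remaining comparisons of the family total did not pass either. In Yu82 from 6 h to 53 h the log2 fold change was -0.67 (SE 0.59, edgeR adjusted p = 0.545), and in Yu537A over the same hours it was -0.07 (SE 0.59, adjusted p = 1.0). The difference between the lines in this change was 0.60 (SE 0.83, edgeR adjusted p = 0.851). The change in Yu82 was -0.21 on library totals and -0.23 without replicate 3 at 6 h. Leaving out a replicate moved the change in Yu537A between -0.37 and 0.48 and the difference between the lines between 0.15 and 1.02, and the difference was 0.16 on library totals. The wide standard error leaves room for a change of either direction. The shares of families called were 0% in Yu82, 2.08% in Yu537A and 0% for the difference.

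From 53 h to 78 h in Yu537A the log2 fold change was -0.34 (SE 0.59, edgeR adjusted p = 0.888). The 78 h group was split, with replicate 1 at 13306 CPM and the others at 2546 and 2987 CPM. Without replicate 1 the log2 fold change was -1.45 (adjusted p = 0.170), and without replicate 2 it was 0.09. No family was called in this comparison (0%), and 6.25% of families had an unadjusted p under 0.05 in edgeR, miR167 not among them.

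Whether GA3 changes miRNAs in the late line was a question of the series. At 53 h the 3 GA3-treated libraries of Yu537A lay between 3865 and 5232 CPM, inside or just under the range of the untreated ones, 4117 to 12851 CPM. The log2 fold change was -0.81 (SE 0.59, edgeR adjusted p = 0.662), and 0% of families were called. It was -0.24 without replicate 1 of the untreated group and -0.46 without replicate 1 of the GA3 group. As a share, miR167 held 0.410% ± 0.0384 with GA3 and 0.600% ± 0.192 without it (SD, n = 3 each, exact permutation p = 0.2, adjusted p = 0.6). The 4 sequences listed in every library all had negative fold changes, with a median log2 fold change of -0.84 against 0 over the 223 sequences tested. They share reads and libraries and are not independent.

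zma-miR167a-5p, the most abundant member, held 55.9% of the family's counts and so largely sets the family total. At 53 h it stood at 1124, 1313 and 1114 CPM in Yu82 and at 7769, 3788 and 2444 CPM in Yu537A. The 3 Yu82 libraries lay close together and all 3 Yu537A libraries, which were spread widely, were above them. The log2 fold change was 1.98 (SE 0.68, edgeR adjusted p = 0.0627 over 223 sequences) and did not pass. It was called by DESeq2 (adjusted p = 0.0185), by limma voom (0.0363), and in edgeR with no filter (0.0139) and with the compared groups alone (0.0356), and stood at 0.83 on library totals (adjusted p = 0.221). At 6 h it stood at 1808, 1243 and 3107 CPM in Yu82 and 2528, 6232 and 3430 CPM in Yu537A, and the lines overlapped. At 78 h Yu537A gave 7905, 1009 and 1265 CPM, and GA3 gave 1924, 2700 and 3315 CPM.

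zma-miR167e-5p_R+1, at 22 nt the longest of the 3 maize 5p sequences, was the one tested miR167 sequence whose lines did not overlap at either time. Of all 223 sequences tested, 27.8% did not overlap at 6 h and 35.4% at 53 h. How many did so at both times was not counted. At 6 h zma-miR167e-5p_R+1 stood at 567, 520 and 1149 CPM in Yu82 and at 1362, 3996 and 2327 CPM in Yu537A, a log2 fold change of 1.78 (SE 0.65, edgeR adjusted p = 0.115). At 53 h it stood at 258, 661 and 546 CPM in Yu82 and at 2827, 1653 and 962 CPM in Yu537A, a log2 fold change of 1.90 (SE 0.65, edgeR adjusted p = 0.0627). Neither passed in the edgeR model, while DESeq2 and limma voom called it at both times and edgeR with no filter called it at 53 h (adjusted p = 0.0474). On library totals the values were 1.07 at 6 h and 0.78 at 53 h. At 78 h Yu537A gave 3561, 628 and 772 CPM. The GA3 libraries were nearly equal at 983, 976 and 1036 CPM, at the foot of the untreated range.

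zma-miR167e-5p stood at 411, 451 and 826 CPM in Yu82 at 6 h and at 192, 530 and 459 CPM at 53 h. In Yu537A it stood at 681, 1389 and 1859 CPM at 6 h, 1471, 850 and 471 CPM at 53 h, 1250, 370 and 443 CPM at 78 h, and 557, 443 and 493 CPM with GA3. Its log2 fold change between the lines was 1.22 at 6 h (SE 0.58, edgeR adjusted p = 0.185) and 1.25 at 53 h (SE 0.59, adjusted p = 0.119), and at both times the lines overlapped. On library totals the values were 0.53 at 6 h and 0.12 at 53 h.

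zma-miR167h-3p_L+1R+1, the main product of the opposite arm, did not follow the 5p sequences. It stood at 255, 260 and 606 CPM in Yu82 at 6 h and at 103, 352 and 251 CPM at 53 h. In Yu537A it stood at 118, 522 and 113 CPM at 6 h, 285, 309 and 250.4 CPM at 53 h, 167.2, 540 and 506 CPM at 78 h, and 401, 169 and 251 CPM with GA3. The lines overlapped at both times, with log2 fold changes of -0.55 at 6 h (SE 0.70, edgeR adjusted p = 0.679) and 0.26 at 53 h (SE 0.70, adjusted p = 0.852), the latter turning to -0.72 on library totals. Across the 18 libraries its level had a Spearman rho of -0.11 with zma-miR167a-5p, against 0.93 for zma-miR167e-5p_R+1 and 0.82 for zma-miR167e-5p, whose reads are partly shared. At 78 h the library that was highest in the 5p sequences, replicate 1, was the lowest in this 3p sequence.

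The lesser 5p sequences were seen mainly in the libraries with most counts. mtr-miR167b-5p_1ss21GT was listed at 0 in all 3 Yu82 libraries at 53 h, and at 212, 95.1 and 0 CPM in Yu537A at 53 h. At 6 h it gave 35.9, 0 and 53.9 CPM in Yu82 and 0, 131 and 68.0 CPM in Yu537A, at 78 h 198, 0 and 0 CPM, and with GA3 0, 61.4 and 89.0 CPM. mdm-miR167h_R-1_1ss19CT was listed at 0 in all 3 Yu82 libraries at 6 h, at 0, 28.1 and 0 CPM in Yu82 at 53 h, and at 0, 65.6 and 0 CPM in Yu537A at 6 h. At 53 h it gave 232, 101 and 0 CPM in Yu537A, at 78 h 224, 0 and 0 CPM, and with GA3 0, 57.2 and 44.5 CPM. Every library in which either was at 0 had 230729 counts or fewer.

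**Figure D2:**
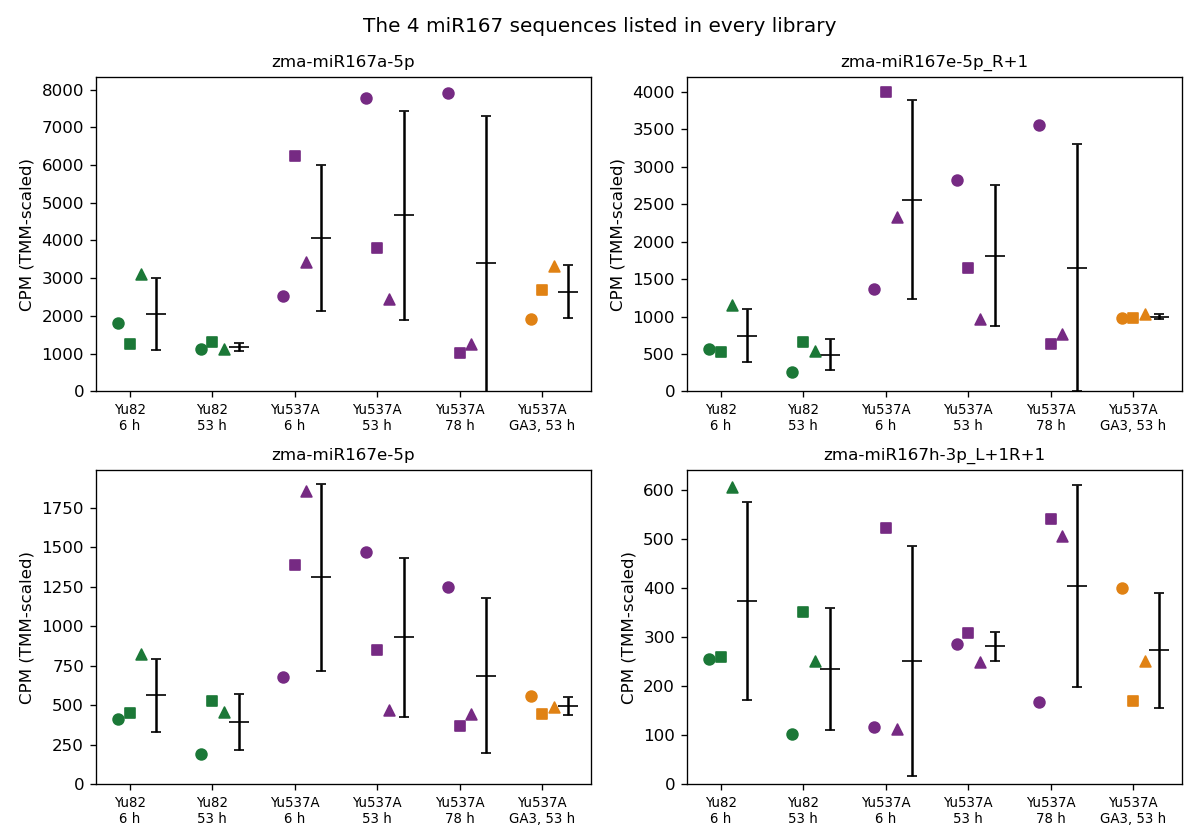
Levels (y axis, CPM scaled by TMM, a scale per panel) of the 4 miR167 sequences listed in every library, by line and time. Points are libraries (circle, square and triangle for replicates 1, 2 and 3) and black marks are the mean ± SD of 3 libraries, with bars cut off at 0. The 3 panels of 5p sequences show some Yu537A libraries far above those of Yu82, while zma-miR167h-3p_L+1R+1 stays between 103 and 606 CPM in every group.

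Over the 6 tested sequences, none passed the threshold in any of the 6 comparisons in the edgeR model. Of all 223 sequences, 0% were called with GA3, 1.35% in Yu82 from 6 h to 53 h, 1.79% in Yu537A over the same hours and 0% from 53 h to 78 h. Between the lines 6.73% were called at 6 h and 10.8% at 53 h. Other fits called some miR167 sequences between the lines, and more of all sequences too. At 6 h DESeq2 called 1, with 11.2% of all sequences called, and limma voom 1, with 21.1%. At 53 h DESeq2 called 2 (21.5% of all sequences), limma voom 3 (30.9%), edgeR with no filter 3 (7.59%) and edgeR with the compared groups alone 1 (23.8%).

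mtr-miR167b-5p_1ss21GT and mdm-miR167h_R-1_1ss19CT passed the filter largely through Yu537A libraries, so they are left out of the following counts. Of the 4 sequences listed in every library, all were positive between the lines at 53 h, 3 had an unadjusted p under 0.05 and the libraries of 2 did not overlap, with a median log2 fold change of 1.57. Over all 223 sequences the median was 0.11, 41.7% had an unadjusted p under 0.05 and 35.4% did not overlap. At 6 h 3 of the 4 were positive, 1 had an unadjusted p under 0.05 and the libraries of 1 did not overlap, with a median of 1.10. Over all sequences the median was -0.30, 27.4% had an unadjusted p under 0.05 and 27.8% did not overlap. Shared reads were divided between 3 of the 4 sequences, the same 3 that had an unadjusted p under 0.05 at 53 h. Those 3 are not independent, so their number cannot be weighed against the percentages over all sequences. The remaining sequence, zma-miR167h-3p_L+1R+1, had a log2 fold change of 0.26 at 53 h, and of -0.72 on library totals.

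The 3p arm took a smaller part of the miR167 counts in Yu537A than in Yu82 at 6 h and 53 h, on few 3p counts. The 3p arm made up 8.31%, 10.5% and 10.6% of the miR167 counts in Yu82 at 6 h and 6.16%, 12.2% and 17.5% at 53 h. In Yu537A it made up 2.51%, 4.44% and 1.46% at 6 h and 2.48%, 4.55% and 6.08% at 53 h. The lines did not overlap at either time, narrowly so at 53 h, and no test was run on these shares. How often the arm shares of other families overlap was not counted. The 3p counts were 9, 193 and 15 in Yu537A at 6 h. At 53 h the nearest libraries had 22 of 357 counts in Yu82 and 25 of 411 in Yu537A. In replicate 3 of Yu82 at 53 h, 18 of the 41 3p counts were zma-miR167e-3p, listed in that library alone. At 78 h the 3p share of miR167 was 1.26% in replicate 1 and 21.2% and 16.9% in the others, and with GA3 it was 10.4%, 4.26% and 4.80%. Of the 3 maize 5p sequences, zma-miR167a-5p held the largest share of their sum in every library, from 45.1% to 71.5%, zma-miR167e-5p_R+1 from 16.3% to 34.4% and zma-miR167e-5p from 9.83% to 24.4%. zma-miR167e-5p_R+1 took 31.6% ± 2.46 of this sum in Yu537A and 22.1% ± 1.63 in Yu82 at 6 h (SD, n = 3), without overlap, and 24.8% ± 1.42 against 22.8% ± 5.65 at 53 h, with overlap. This split rests in part on how shared reads were divided between the 3 sequences, and it was not tested.

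Depth moved with the level of miR167. In 5 of the 6 groups the library with the most counts also had the highest miR167 level in CPM, the exception being the GA3 group. Across the 18 libraries the Spearman rho with the library total was 0.64 for the level in CPM, 0.50 for the share of miRNA counts and -0.44 for the 3p share. These are given as a description since the libraries differ in group. The relation of other families to depth is not given here. The lines differ in depth as well: at 53 h Yu82 had 42958 to 170517 counts and Yu537A 99068 to 818798. Without the 3 libraries under 110000 counts the log2 fold change between the lines at 53 h was 1.74, with an edgeR adjusted p of 0.114. The part of depth in the result was not tested.

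**Figure D3:**
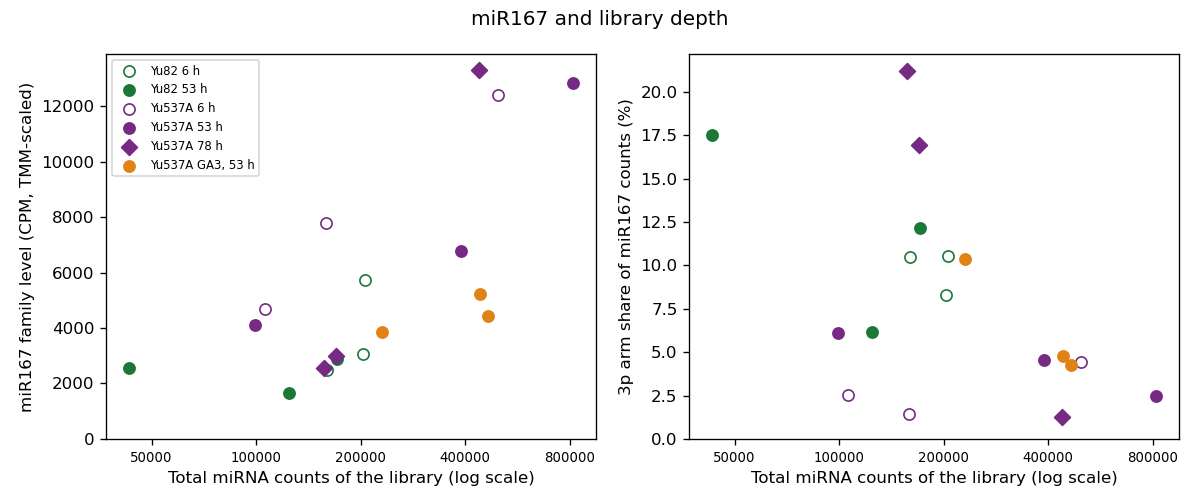
Level of the miR167 family (left, CPM scaled by TMM) and share of the 3p arm in its counts (right, percent) against the total miRNA counts of each of the 18 libraries (log scale). Colours mark the line or GA3 and shapes the time. The 3 libraries at 12396 CPM or more had 437396 counts or more, and the 3 libraries with the highest 3p shares had 169865 counts or fewer.

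Among 4 other families that act on auxin signalling, 1 was called higher in Yu537A at 53 h, as miR167 was. Of all 48 families 9 were called higher there (18.8%), so this count does not set the auxin families apart. miR393, which targets the TIR1/AFB auxin receptors, was higher in Yu537A than in Yu82 at 53 h by 2.13 log2 units (SE 0.51, edgeR adjusted p = 0.00654). miR390, which starts the trans-acting siRNAs that silence ARF3 and ARF4 in Arabidopsis, was 1.62 log2 units lower in Yu537A (SE 0.62), with non-overlapping libraries, and did not pass (adjusted p = 0.059). miR160, which targets a further set of repressing auxin response factors, gave -0.13 (SE 0.33, adjusted p = 0.866), and miR164, which targets NAC factors that act downstream of auxin, gave 0.05 (SE 0.50, adjusted p = 0.958). The scaling moved these values too. With RLE scaling miR393 stood at 1.89 (adjusted p = 0.00738), miR390 at -1.88 (adjusted p = 0.0268) and miR164 on the other side of 0 at -0.20 (adjusted p = 0.763). On library totals miR393 stood at 1.13 (adjusted p = 0.0501), miR390 at -2.85 (adjusted p = 0.0131), miR160 at -1.18 (adjusted p = 0.0179) and miR164 at -1.15 (adjusted p = 0.0848), beside the median of -1.16 over all families on that scale. At 6 h miR390 stood at -1.89 with RLE (adjusted p = 0.0467) and -2.53 on library totals (adjusted p = 0.0237), and miR160 at -1.44 on library totals (adjusted p = 0.00432), where the median over all families was -0.57. With TMM scaling none of the 4 families passed in the other 5 comparisons. Of their 12 tested sequences, 2 were called higher between the lines at 53 h and none in any other comparison, at a background of 6.73% of sequences called higher.

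**Figure D4:**
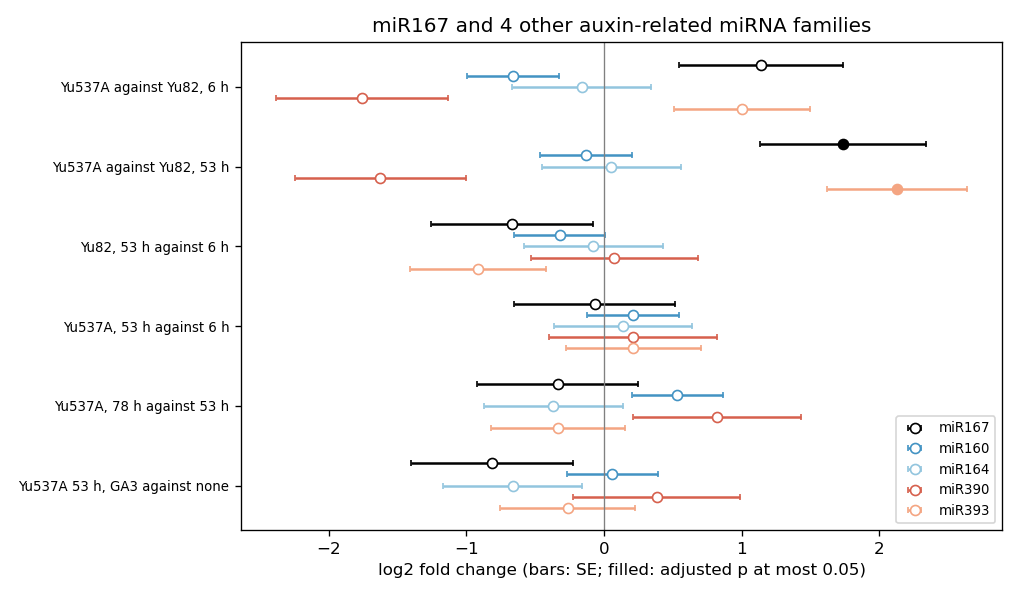
Log2 fold changes (x axis, with SE as bars, edgeR) of miR167 and 4 other auxin-related families in the 6 comparisons. Filled points have an adjusted p of at most 0.05. Between the lines at 53 h miR167 stood at 1.74 and miR393 at 2.13, and miR390 lay on the other side of 0 at -1.62.

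Over the 18 libraries, the 3 families whose level was most like that of miR167, of 47 compared by Spearman's rho on log2 CPM, were miR827 (0.92), miR396 (0.89) and miR166 (0.86). miR393 followed at 0.85, miR164 at 0.25, miR160 at -0.19 and miR390 at -0.54. For zma-miR167a-5p the most alike of 217 sequences outside the family were zma-miR827-3p (0.92), osa-miR444b.1_L+1 (0.91) and zma-miR827-5p_L+1 (0.89). These values share libraries, depth and scaling, and are a description.

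In the degradome table, the authors listed 678 pairings of a miR167 sequence with a transcript, and 158 of them had reads at the predicted cleavage site. The deposited categories run from 0 to 4. In the usual scheme 0 is the position with the most reads of its transcript, 1 a position that ties for the most, and higher numbers mark weaker positions. Of the 158 miR167 sites none was in category 0, 21 in category 1, 51 in category 2 and 86 in category 4. In the authors' deposited table, category 0 held 21.4% of all 5198 sites with reads. The most reads at any miR167 site was 9. Sites on transcripts of 1 gene share their reads, so rows are not independent. The cleavage position lay opposite base 10 of the aligned miRNA in 31 rows, base 11 in 115 and base 9 in 12, counted from the end of the alignment.

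Category 0 or 1 with a p of at most 0.05 was met by 21 of the 158 miR167 rows (13.3%), against 5.19% of all rows, in the authors' deposited table. They fell on 13 transcripts, of 3 genes with an identifier and 4 assembled transcripts without one. Zm00001d032343, annotated as the histone-lysine N-methyltransferase EZH2, had 5 reads at transcript position 2911. In the authors' deposited table this site was assigned to zma-miR167e-5p_R+1 (alignment penalty 3, p = 0.0103), zma-miR167e-5p (penalty 4, p = 0.0253) and mdm-miR167h_R-1_1ss19CT (penalty 4, p = 0.037). The same 5 reads recur on 3 of the assembled transcripts, MSTRG.4774.1, MSTRG.4774.2 and MSTRG.4774.3.

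Zm00001d031064, whose gene ontology terms include auxin-activated signalling, had 9 reads on each of 7 transcripts in category 1 and on MSTRG.3638.6, with p = 0.0422 and a penalty of 4 in the authors' deposited table. On its transcript T006 the 9 reads fell in category 2, with p = 0.997 in the authors' deposited table. Zm00001d041497, with auxin terms too, had 4 reads on its second transcript in category 1, again with a penalty of 4 and the same p of 0.0422 in the authors' deposited table. Of the 17 transcripts of this gene with the site, only this 1 met the rule. The others were in category 2 with p = 0.997 in the authors' deposited table, several with the same 4 reads. Both genes were paired only with mtr-miR167b-5p_1ss21GT, a sequence listed in 9 of the 18 small RNA libraries. A further pair of genes with auxin or hormone terms, Zm00001d001879 and Zm00001d026590, was paired with zma-miR167a-5p and ptc-miR167a_R+1, with at most 2 reads, category 2 at best and p of 0.999999 or above in the authors' deposited table.

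The name annotation was empty for these 4 genes, as for most transcripts in the miR167 rows. They were therefore taken by their auxin or hormone response terms, and whether they are auxin response factors was not settled. The name was empty too for the miR160 and miR393 genes that follow. For comparison, miR160 sites fell on 5 genes with such terms in the authors' deposited table, with a best category of 0 in each and with up to 324 reads, and their penalties ran from 0 to 3. miR393 had 1 such gene, in category 0, with 7 reads. The auxin-term sites of miR167 all had a penalty of 4, the highest value the table holds. The level of miR167 in the library used for the degradome is not known, and a low read number there does not show that cleavage is rare.

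**Figure D5:**
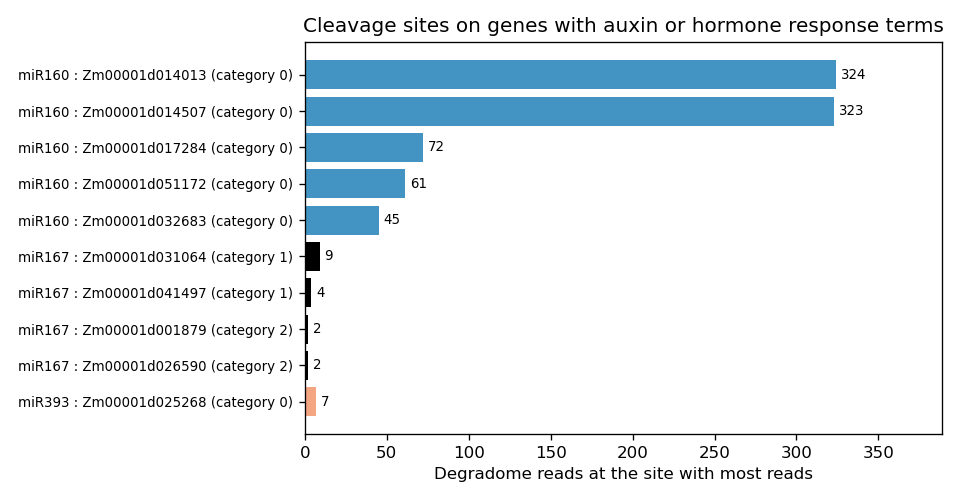
Degradome reads (x axis) at the site with the most reads on each gene that carries an auxin or hormone response term, for the 3 families with such sites, in 1 library and with no error. Labels give the gene and its best category. The 5 genes of miR160 had 45 to 324 reads, the 4 of miR167 had 2 to 9 and the 1 of miR393 had 7.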

How the data were processed

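The authors deposited 1 table of miRNAs and 1 of degradome sites. Per the file headers, the miRNA table holds expected counts (reads of the isoforms of an arm, divided over the entries that share them) and a signal, the same counts after the authors' scaling of each library, which was not used. The degradome table, per the file headers, holds read counts per site, a normalized signal, p-values with no stated adjustment, an alignment penalty score and an other measure, the category. No label or header names the matching tools or the genome build. The tables were held in part, with 9 and 5176 lines empty. Libraries were sequenced as single-end reads from TruSeq small RNA libraries, per the labels' protocols, and carried no molecular identifiers, so depth speaks for counting error alone.

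Expected counts were summed per sequence and rounded. For sequences listed on several entries, 38.6% of the entry values above 0 and 88.6% of the sums were whole within 0.01. Of the 536 sequences, 9 had values equal to another in every library, in at least 2 libraries, and were merged, leaving 527. A narrower rule that merged 5 sequences had been fitted first. Its result for the lines at 53 h was seen before the wider rule was adopted, and all of these fits are reported. Counts were tested in edgeR 4.0.16 (R 4.3.3) with TMM factors from the sequence table, filterByExpr with a minimum count of 10, 1 mean per group and the two-sided quasi-likelihood test, with Benjamini-Hochberg adjustment over 48 families or 223 sequences and 0.05 as the threshold. Which table sets the TMM factors had not been fixed, and factors from the family table were added as an alternative. DESeq2 1.42.0 and limma 3.58.1 were alternatives. The edgeR test was also run on counts simulated with the mean levels and spread of the real ones. These were counts of sequences, and family totals were not simulated. The test recovered only a part of the large changes put in, so a change that did not pass is not shown to be absent. It also called some unchanged sequences in that run, so a call near the threshold can be a false one. With no change put in, it called none. Each standard error was obtained by dividing the log2 fold change by the root of the F statistic. Shares were compared by exact permutation tests in scipy 1.17.1. Python 3.11.15, pandas 2.3.3, numpy 2.4.6 and matplotlib 3.10.9 made the tables and plots.

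The members, lists and tests were chosen with earlier results of these data known. All members are accounted for. Values per library are given for the most abundant of each arm, and degradome sites of category 0 or 1 with p at most 0.05 are named. Sites on genes with auxin terms are named as well, since the name annotation of those genes was empty. Replicates are biological per the design text. The labels do not say that equal replicate numbers pair the libraries. The correlation of residuals between libraries of the same number passed 0.1 in every pair only for Yu537A from 53 h to 78 h (0.448, 0.187 and 0.308), where the replicate block gave no other call.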

Additional observations from a re-analysis of the deposited data

How the results depend on the processing

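The family total between the lines at 53 h stayed positive under all 17 alternatives run and passed 0.05 under 7 of them, over a range of adjusted p from 0.0145 to 0.283. It missed on library totals (log2 fold change 0.60), with the replicate block (1.66), without the 3 libraries under 110000 counts (1.74), with TMM factors from the family table (1.43, adjusted p = 0.0526), with no merging of equal-valued sequences (1.77) and with the narrower merging rule (1.72). The settings without shallow libraries, with family-table factors and with no merging were added after seeing the data. The narrower merging rule was fitted first, and the rule used here was adopted after its result had been seen. Leaving out a replicate gave 1.15 to 1.84, and gave 0.53 to 1.57 at 6 h, -0.82 to -0.24 for GA3, -0.90 to -0.23 for Yu82 from 6 h to 53 h and 0.15 to 1.02 for the difference between the lines. The cause was not tested. The other family totals stayed on the same side of 0.05 under every alternative. Yu537A from 6 h to 53 h, near 0, turned to 0.0196 with no merging and ran from -0.37 to 0.48 without a replicate, and from 53 h to 78 h the range without a replicate was -1.45 to 0.0874. Without a replicate, the share of miRNA counts ran from -0.136 to 0.0181 percentage points for Yu82 from 6 h to 53 h and from -0.163 to 0.106 for Yu537A over the same hours, which turned to 0.134 with miR166 left out of the denominator.

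No miR167 sequence was called in the edgeR model used here. Between the lines at 53 h, 3 were called with no filter (7.59% of all sequences), 2 by DESeq2 (21.5%), 3 by limma voom (30.9%) and 1 with the compared groups alone (23.8%). At 6 h, 1 was called by DESeq2 (11.2%) and 1 by limma voom (21.1%). zma-miR167h-3p_L+1R+1 between the lines at 53 h turned to -0.72 on library totals and ran from -0.0793 to 0.742 without a replicate. The replicate block changed no other call of a family total. In the degradome, 0 rows remained with category 0 alone, 0 with p at most 0.01, and 21 with categories 0 to 2. Depth limits the low members: a value of 0 may stand for a few counts.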
